A study of Homo sapiens with 16 samples.

Results

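The genes described here are the 3 D cyclins, *CCND1*, *CCND2* and *CCND3*, their partner kinases *CDK4* and *CDK6*, and 5 inhibitors of these kinases, *CDKN1A*, *CDKN1B*, *CDKN2A*, *CDKN2C* and *CDKN2D*. They were taken by gene symbol from the in vitro tables of read counts, in which they are 10 of 60357 listed genes. All 10 passed the filter of 600 reads summed over the 12 in vitro libraries, which left 15863 genes. The study delivered siRNAs in lipid nanoparticles (LNPs) to Kasumi-1 and SKNO-1, cell lines of acute myeloid leukaemia that carry the t(8;21) translocation and its fusion gene *RUNX1/ETO*. Each line has 3 libraries labelled siMM-mod, a chemically modified mismatch control with the genotype label WT, and 3 labelled siRE-mod, the modified siRNA against the fusion transcript with the genotype label RUNX1/ETO knockdown. In all 12 libraries the cells had received LNPs at 2 µg/ml for 24 h and were harvested on day 3, and SKNO-1 was grown with GM-CSF, a growth factor it depends on. The 4 other libraries are of Kasumi-1 cells recovered from mice at the end of a survival experiment, 2 for each siRNA.

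D cyclins bind *CDK4* or *CDK6*, and the active kinase phosphorylates the retinoblastoma protein RB1, which then releases E2F transcription factors and lets a cell pass from G1 into S phase. The INK4 inhibitors, encoded by *CDKN2A*, *CDKN2C* and *CDKN2D*, bind *CDK4* and *CDK6* themselves, whereas the CIP/KIP inhibitors p21 (*CDKN1A*) and p27 (*CDKN1B*) bind complexes of cyclin and kinase. In t(8;21) leukaemia, *CCND2* is known as a gene that the fusion protein activates.

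The labels and the expression of the libraries crossed. *RUNX1T1*, whose *ETO* sequence makes up the 3' part of the fusion transcript, was used as the measure of the targeted gene, in CPM normalized by edgeR's TMM method (normalized CPM). It stood at 296, 92.7 and 161 normalized CPM in replicates 1, 2 and 3 labelled Kasumi-1 siMM-mod and 44.3, 159 and 37.2 in those labelled Kasumi-1 siRE-mod. Its values in SKNO-1 were 329, 297 and 127 with siMM-mod and 123, 164 and 40.4 with siRE-mod. Its log2 fold change of siRE-mod over siMM-mod in Kasumi-1 was -1.19 ± 0.71 and that in SKNO-1 -1.19 ± 0.57 (SE, n = 3 per label), with edgeR adjusted p = 0.392 and 0.491. In Kasumi-1, siRE-mod replicate 2 lay close to siMM-mod replicate 3 of that line, in SKNO-1, siRE-mod replicate 2 lay above siMM-mod replicate 3 of its line, and the labelled groups overlapped in both lines. *CD34*, a surface protein of stem and progenitor cells, separated the 12 libraries further. It was at 117 to 420.2 normalized CPM in 6 libraries, called CD34-expressing here, namely Kasumi-1 siMM-mod replicates 1 and 2, SKNO-1 siMM-mod replicates 1, 2 and 3 and SKNO-1 siRE-mod replicate 1. In the other 6, called CD34-silent, it was at 0.107 to 0.626, while *IL5RA*, an interleukin receptor chain, was at 36.2 to 67.9 there and at most 0.178 in the CD34-expressing libraries. Each set therefore held libraries labelled with both lines and with both siRNAs.

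Within the CD34-expressing libraries *RUNX1T1* was at 296 to 329 normalized CPM in SKNO-1 siMM-mod replicates 1 and 2 and Kasumi-1 siMM-mod replicate 1, and at 92.7 to 127 in SKNO-1 siMM-mod replicate 3, SKNO-1 siRE-mod replicate 1 and Kasumi-1 siMM-mod replicate 2. Within the CD34-silent ones it was at 159 to 164 in SKNO-1 siRE-mod replicate 2, Kasumi-1 siMM-mod replicate 3 and Kasumi-1 siRE-mod replicate 2, and at 37.2 to 44.3 in Kasumi-1 siRE-mod replicates 1 and 3 and SKNO-1 siRE-mod replicate 3. *CD34* differed between the same libraries. In the CD34-expressing set it was at 417 to 420.2 with more *RUNX1T1* and at 117 to 153 with less. In the CD34-silent set it was at 0.107 to 0.141 with more and at 0.443 to 0.626 with less. Within either set, differences by *RUNX1T1* and by *CD34* level therefore cannot be told apart. These 4 sets of 3 libraries are used below only to order the values. They are not the study's groups, were not averaged or tested, and no condition was assigned from them. The myeloid markers *PTPRC*, *CD33*, *MPO*, *SPI1* and *KIT* were present in every library, *MPO* at 1779.9 normalized CPM or more, and those of T, B and erythroid cells and of stroma reached at most 0.599. *EPCAM*, an epithelial surface protein, was at 77.3 to 104 in the CD34-expressing libraries and at most 0.0108 in the CD34-silent ones, with the epithelial keratin *KRT18* at most 0.0136 in any. *POU4F1*, a transcription factor that marks t(8;21) leukaemia, was at 6.55 to 9.31 in the CD34-expressing and at 0.697 to 1.20 in the CD34-silent libraries. The libraries held 60559466 to 147990959 counts on genes. Nothing in the labels says that replicates came from separate cultures, so p-values measure the spread between these libraries, which may be technical.

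The first comparison asked whether the members differ between the siRNA labels. *CCND1*, *CDKN1B* and, by smaller fold changes, *CCND2*, *CDK4*, *CDK6* and *CDKN2C* were on average lower in the libraries labelled siRE-mod of each line. *CCND3*, *CDKN1A*, *CDKN2A* and *CDKN2D* were on average higher there, but none of the 10 members passed the test. In edgeR's quasi-likelihood test, adjusted by Benjamini-Hochberg, 0 of 10 members and 0.0% of all genes tested were called in Kasumi-1, in SKNO-1, over both lines and for the difference between the lines. Members with an unadjusted p under 0.05 numbered 4 in Kasumi-1 (17.9% of all genes tested), 1 in SKNO-1 (10.7%), 5 over both lines (31.3%) and 0 for the difference (0.668%), where the adjusted p of each member was 0.99997. Over the 10 members the median log2 fold change was -0.17 in Kasumi-1, -0.12 in SKNO-1 and -0.15 over both lines, beside 0.02, 0.03 and 0.04 over all genes tested, and 4 of 10 were above 0 in each.

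**Figure D1:**
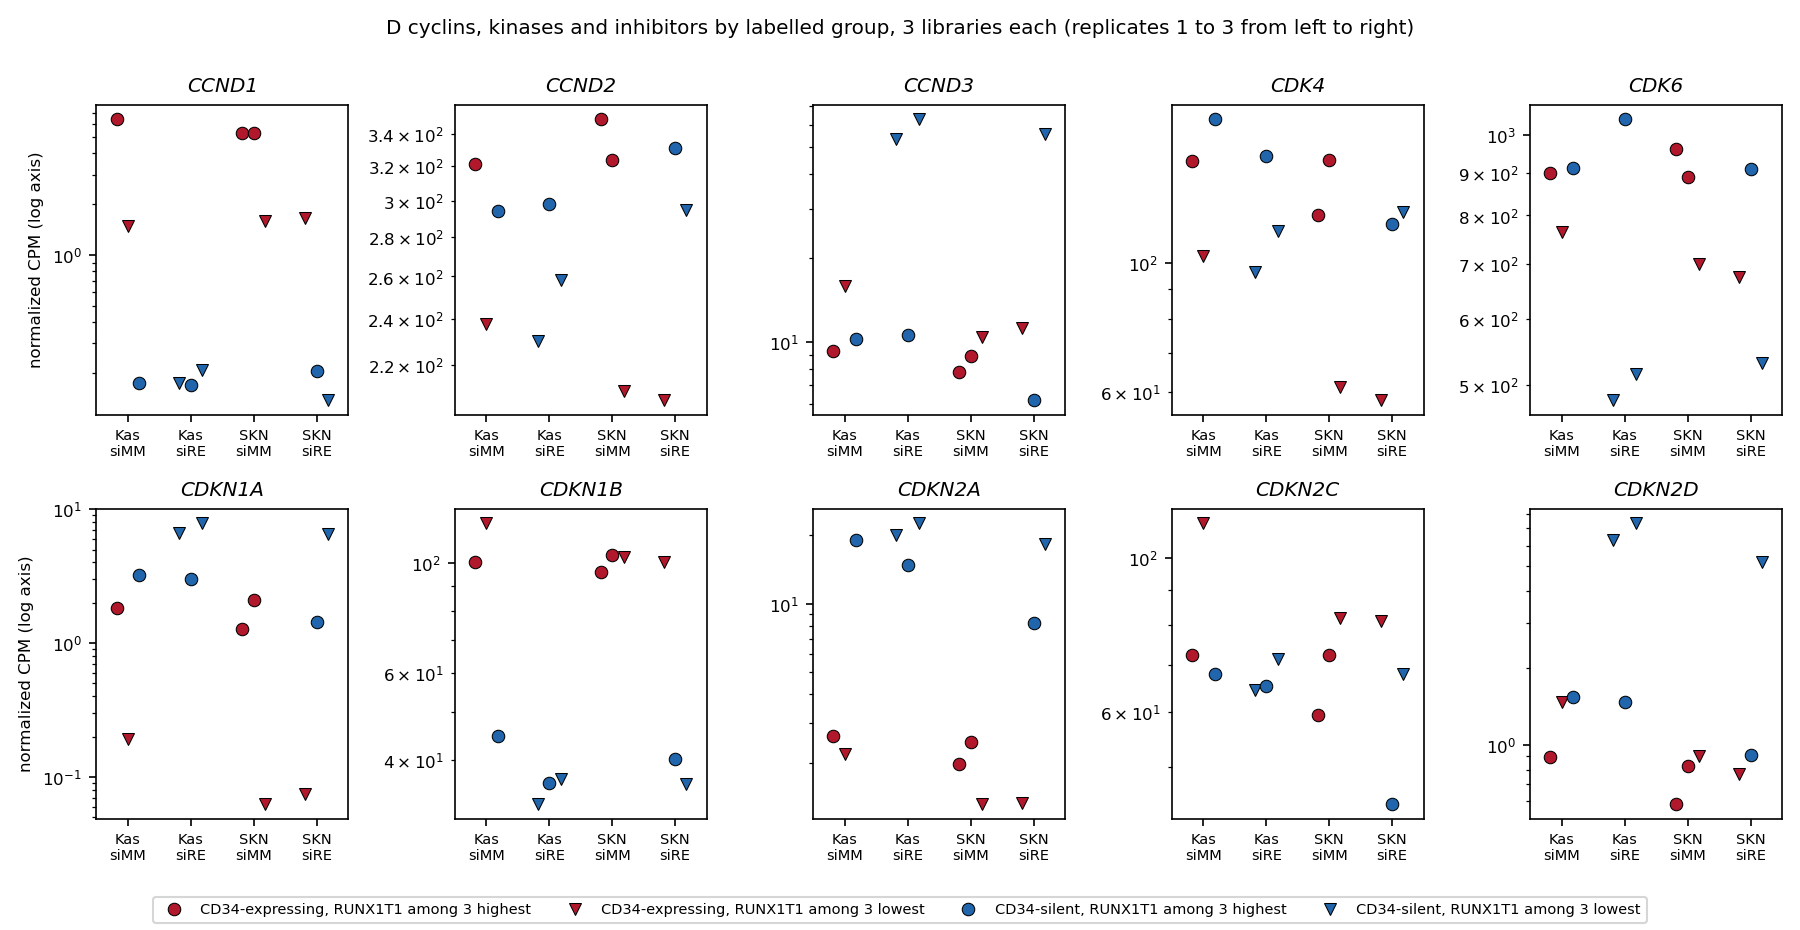
Each point is one library, with its normalized CPM on a log axis and the 4 labelled groups of 3 libraries along the horizontal axis. Colour gives the CD34-expressing (red) and CD34-silent (blue) libraries and the triangle the 3 of each set with the lowest *RUNX1T1*. Points of one label spread widely, and points of one colour and shape often lie close together, as for *CCND3* at 53.5 to 63.2 in the 3 blue triangles.

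DESeq2 with the same filter gave calls at an adjusted p under 0.05. In Kasumi-1 it called 4 of 10 members against 8.55% of all genes, *CCND3* and *CDKN2D* higher and *CCND1* and *CDKN1B* lower in siRE-mod. In SKNO-1 it called 0 of 10 against 2.73%, with 2 members at an unadjusted p under 0.05 (14.0% of genes). Over both lines it called 5 of 10 against 21.7%, *CCND3*, *CDKN2A* and *CDKN2D* higher and *CCND1* and *CDKN1B* lower, and for the difference between the lines 0 of 10 against 0.801%, with 0 members at an unadjusted p under 0.05 (2.27%). The calls of edgeR depended on single libraries. Without replicate 3 of Kasumi-1 siMM-mod, one of the CD34-silent libraries, edgeR called 3 members in Kasumi-1 (*CCND1*, *CDKN1B* and *CDKN2A*) against 32.2% of genes. Without SKNO-1 siRE-mod replicate 1, the CD34-expressing library of its label, it called the same 3 members in SKNO-1 against 19.3%. Over both lines it called 4 members without the former (27.8% of genes), 5 without the latter (26.6%), and 0 without SKNO-1 siMM-mod replicate 3 (5.54%). In Kasumi-1 without the former and in SKNO-1 without the latter, the siMM-mod libraries left were all CD34-expressing and the siRE-mod libraries all CD34-silent. Label and CD34 set cannot be told apart in those fits. By the plain criterion that no value of one label overlapped those of the other, 1 of 10 members stood apart in Kasumi-1 (21.5% of 15863 genes), 0 in SKNO-1 (11.9%) and 0 over both lines (0.82%).

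**Figure D2:**
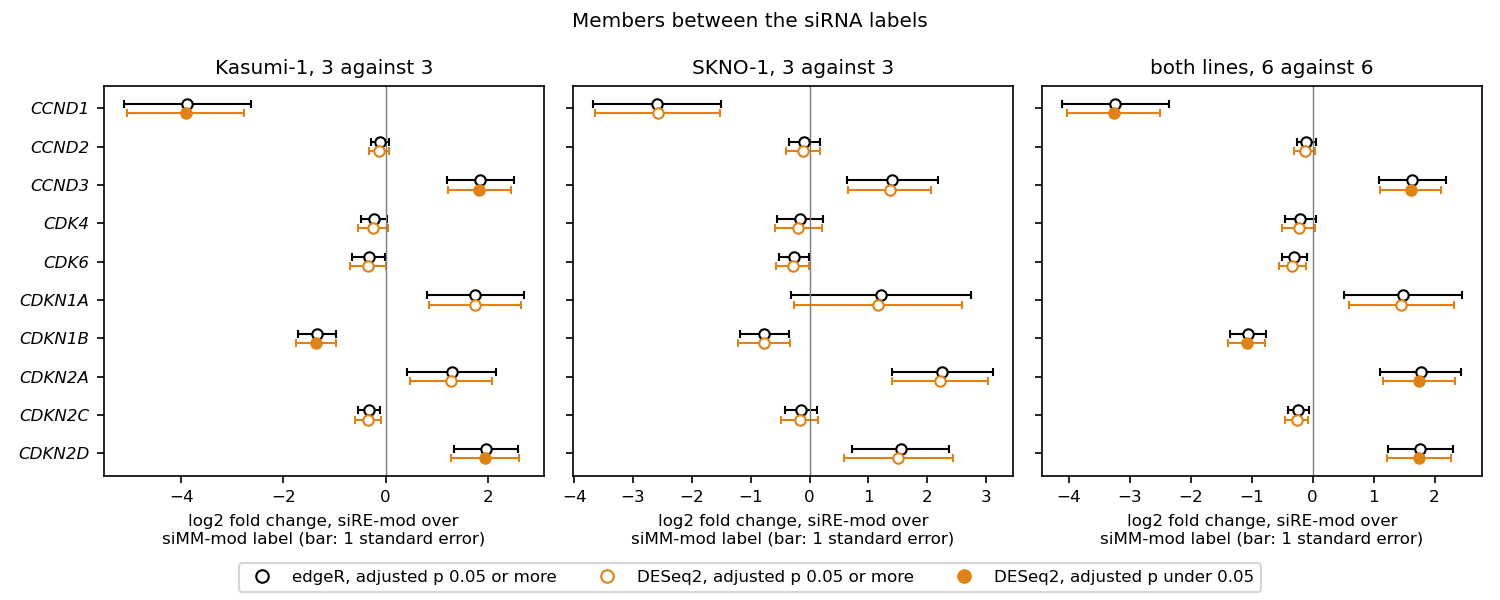
Points are log2 fold changes of siRE-mod over siMM-mod labels with bars of 1 standard error, by edgeR (black) and DESeq2 (orange), for Kasumi-1, SKNO-1 and both lines. Filled points passed an adjusted p of 0.05, which DESeq2 gave for 4 members in Kasumi-1 and 5 over both lines and edgeR for none. *CCND1* has the lowest fold change in each panel and *CCND2* lies within 1 standard error of 0.

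Among the D cyclins, *CCND1* followed CD34 and then *RUNX1T1*, *CCND2* varied least, and *CCND3* was high in 3 libraries alone. *CCND1* (GRCh38 chr11:69641087-69654474, plus strand) stood at 6.44, 1.49 and 0.173 normalized CPM in replicates 1, 2 and 3 labelled Kasumi-1 siMM-mod and 0.173, 0.169 and 0.209 in those labelled Kasumi-1 siRE-mod. The SKNO-1 libraries gave 5.32, 5.28 and 1.59 with siMM-mod and 1.66, 0.205 and 0.137 with siRE-mod. The highest 3 values were those of the 3 CD34-expressing libraries with more *RUNX1T1*, at 5.28 to 6.44, followed by the other 3 CD34-expressing libraries at 1.49 to 1.66. All 6 CD34-silent libraries lay at 0.137 to 0.209, which rests on 16 to 22 counts a library, and among them the 3 with more and the 3 with less *RUNX1T1* overlapped. The lowest CD34-expressing value was 7.14 times the highest CD34-silent one. In bulk RNA, fewer cells of a type and less RNA per cell cannot be told apart. Between the labels the log2 fold change of *CCND1* was -3.88 ± 1.24 in Kasumi-1, -2.59 ± 1.09 in SKNO-1 and -3.23 ± 0.87 over both lines (SE, n = 3 per label and line), with edgeR adjusted p = 0.252, 0.467 and 0.0736. Without Kasumi-1 siMM-mod replicate 3, it was -4.43 in Kasumi-1 (edgeR adjusted p = 0.00504), and without SKNO-1 siRE-mod replicate 1 -4.59 in SKNO-1 (edgeR adjusted p = 0.0102). In these fits the labels split the libraries as CD34 does, so label and CD34 set cannot be told apart. Of the exonic bases of *CCND1*, 10.3% are shared with *LTO1* on the other strand, which stood at 8.15 to 15.0 normalized CPM. Whether the counting used strand is not stated.

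*CCND2* (chr12:4273762-4305353, plus strand), the D cyclin tied to the fusion gene, was the most abundant of the 3 in every library. Its values were 321, 238 and 294 normalized CPM in replicates 1, 2 and 3 labelled Kasumi-1 siMM-mod and 230.0, 298 and 258 in those labelled Kasumi-1 siRE-mod. In SKNO-1 they were 350.2, 324 and 209.6 with siMM-mod and 206, 331 and 295 with siRE-mod. The labelled groups overlapped in both lines, and the log2 fold change was -0.11 ± 0.17 in Kasumi-1, -0.088 ± 0.26 in SKNO-1 and -0.10 ± 0.16 over both lines (SE, n = 3 per label and line), with edgeR adjusted p = 0.719, 0.929 and 0.679. Scaling by library size alone, which moves the median of all genes to 0.33, 0.14 and 0.25, turned these values to 0.18, 0.043 and 0.11. Relative to that median they stayed below it, at -0.14, -0.09 and -0.14. By *RUNX1T1*, the CD34-expressing libraries stood apart: *CCND2* was at 321 to 350.2 in the 3 with more and at 206 to 238 in the 3 with less, a ratio of 1.35 between the nearest values. In the CD34-silent libraries the corresponding ranges, 294 to 331 and 230.0 to 295, overlapped.

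*CCND3* (chr6:41934933-42050357, minus strand), a D cyclin used by many blood cells, had another pattern. It stood at 9.27, 15.9 and 10.2 normalized CPM in replicates 1, 2 and 3 labelled Kasumi-1 siMM-mod and 53.5, 10.6 and 63.2 in those labelled Kasumi-1 siRE-mod. In SKNO-1 it stood at 7.81, 8.93 and 10.4 with siMM-mod and at 11.3, 6.17 and 55.6 with siRE-mod. The 3 high values, 53.5 to 63.2, belonged to the 3 CD34-silent libraries with the lowest *RUNX1T1* of all 12, and the other 9 libraries lay at 6.17 to 15.9. Within the CD34-silent set the lowest of these 3 was 5.04 times the highest of the others. In the CD34-expressing set the libraries with less *RUNX1T1* were also above those with more, at 10.4 to 15.9 against 7.81 to 9.27, by a factor of 1.13 between the nearest values. The log2 fold change between labels was 1.85 ± 0.66 in Kasumi-1, 1.40 ± 0.77 in SKNO-1 and 1.64 ± 0.55 over both lines (SE, n = 3 per label and line), with edgeR adjusted p = 0.255, 0.525 and 0.0898, and the labelled groups overlapped, each siRE-mod group holding libraries at the level of siMM-mod. In SKNO-1 the value rested on 1 library: without siRE-mod replicate 3 it was -0.02.

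The kinases were high throughout. *CDK6* was lower where *RUNX1T1* was lower in both CD34 sets, and *CDK4* in the CD34-expressing set. *CDK4* (chr12:57747727-57756013, minus strand) stood at 149, 102 and 176 normalized CPM in replicates 1, 2 and 3 labelled Kasumi-1 siMM-mod and 96.3, 152 and 113 in those labelled Kasumi-1 siRE-mod. Its values in SKNO-1 were 121, 149.9 and 61.1 with siMM-mod and 58.1, 116 and 122 with siRE-mod. Its lowest values, 58.1 and 61.1, were those of SKNO-1 siRE-mod replicate 1 and SKNO-1 siMM-mod replicate 3, which are CD34-expressing with less *RUNX1T1*. Within that CD34 set the libraries with less *RUNX1T1* lay at 58.1 to 102 and those with more at 121 to 149.9, without overlap. In the CD34-silent set the ranges were 96.3 to 122 and 116 to 176 and overlapped. Of the exonic bases of *CDK4*, 44.2% are shared with *TSPAN31* on the other strand, which stood at 7.81 to 17.9 normalized CPM. The log2 fold change of *CDK4* between labels was -0.23 ± 0.26 in Kasumi-1, -0.17 ± 0.40 in SKNO-1 and -0.20 ± 0.25 over both lines (SE, n = 3 per label and line), with edgeR adjusted p = 0.620, 0.908 and 0.60, and scaling by library size alone turned it to 0.049 in Kasumi-1 and 0.019 over both lines.

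*CDK6* (chr7:92604921-92836594, minus strand), a kinase prominent in blood progenitors, had the highest normalized CPM of the 10 members in every library. Its values were 899, 765 and 912 normalized CPM in replicates 1, 2 and 3 labelled Kasumi-1 siMM-mod and 479, 1046 and 516 in those labelled Kasumi-1 siRE-mod. In SKNO-1 they were 963, 891 and 699 with siMM-mod and 676, 909 and 531 with siRE-mod. The 3 lowest values, 479 to 531, came from the CD34-silent libraries with the least *RUNX1T1*, in which *CCND3* was highest. The 3 next lowest, 676 to 765, came from the CD34-expressing libraries with less *RUNX1T1*, and the 6 libraries with more *RUNX1T1* in either set lay at 891 to 1046. The nearest values of less and more *RUNX1T1* differed by a factor of 1.16 in the CD34-expressing and 1.71 in the CD34-silent set. Between labels the log2 fold change was -0.33 ± 0.33 in Kasumi-1, -0.27 ± 0.26 in SKNO-1 and -0.30 ± 0.21 over both lines (SE, n = 3 per label and line), with edgeR adjusted p = 0.583, 0.721 and 0.321.

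The CIP/KIP inhibitors moved with different readings of the libraries, *CDKN1A* with *RUNX1T1*, in opposite directions in the CD34 sets, and *CDKN1B* with CD34. *CDKN1A* (chr6:36676460-36687339, plus strand), which encodes p21, stood at 1.82, 0.191 and 3.25 normalized CPM in replicates 1, 2 and 3 labelled Kasumi-1 siMM-mod and 6.68, 2.99 and 7.94 in those labelled Kasumi-1 siRE-mod. The SKNO-1 libraries gave 1.28, 2.09 and 0.0624 with siMM-mod and 0.0742, 1.45 and 6.51 with siRE-mod. Among CD34-silent libraries it was at 6.51 to 7.94 in the 3 with less *RUNX1T1* and at 1.45 to 3.25 in the 3 with more. Among CD34-expressing libraries the order was the reverse, with 0.0624 to 0.191 in the 3 with less, from 15, 4 and 5 counts, and 1.28 to 2.09 in the 3 with more. Neither pair of ranges overlapped, the difference between the sets was not tested, and the highest library was 127 times the lowest, a ratio that rests on 4 counts in the lowest. The log2 fold change between labels was 1.76 ± 0.94 in Kasumi-1, 1.21 ± 1.53 in SKNO-1 and 1.49 ± 0.96 over both lines (SE, n = 3 per label and line), with edgeR adjusted p = 0.360, 0.798 and 0.299.

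*CDKN1B* (chr12:12715058-12722369, plus strand), which encodes p27, stood at 101, 121 and 44.8 normalized CPM in replicates 1, 2 and 3 labelled Kasumi-1 siMM-mod and 32.6, 36.0 and 36.6 in those labelled Kasumi-1 siRE-mod. In SKNO-1 it stood at 95.9, 104 and 103 with siMM-mod and at 101, 40.3 and 35.9 with siRE-mod. All 6 CD34-expressing libraries lay at 95.9 to 121 and all 6 CD34-silent ones at 32.6 to 44.8, with a ratio of 2.14 between the nearest values. Within either set the libraries with less and more *RUNX1T1* overlapped. It was the 1 member whose labelled groups did not overlap in Kasumi-1, where the lowest siMM-mod value, 44.8 in the CD34-silent replicate 3, was 1.22 times the highest siRE-mod value. The log2 fold change between labels was -1.34 ± 0.37 in Kasumi-1, -0.77 ± 0.42 in SKNO-1 and -1.06 ± 0.29 over both lines (SE, n = 3 per label and line), with edgeR adjusted p = 0.252, 0.520 and 0.0743. Without Kasumi-1 siMM-mod replicate 3 it was -1.66 in Kasumi-1 (edgeR adjusted p = 0.000701) and without SKNO-1 siRE-mod replicate 1 -1.43 in SKNO-1 (edgeR adjusted p = 0.00314). Label and CD34 set coincide in these fits and cannot be told apart.

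Of the INK4 inhibitors, *CDKN2A* was higher in every CD34-silent library, *CDKN2D* in 3 of them, and *CDKN2C* varied least. *CDKN2A* (chr9:21967753-21995301, minus strand) encodes p16INK4a and, from another reading frame, p14ARF, which the counts per gene do not separate. It stood at 2.63, 2.18 and 19.1 normalized CPM in replicates 1, 2 and 3 labelled Kasumi-1 siMM-mod and 20.0, 14.8 and 22.7 in those labelled Kasumi-1 siRE-mod. Its values in SKNO-1 were 1.98, 2.47 and 1.31 with siMM-mod and 1.34, 8.22 and 18.4 with siRE-mod. CD34-silent libraries lay at 8.22 to 22.7 and CD34-expressing ones at 1.31 to 2.63, a ratio of 3.13 between the nearest values, and the ranges by *RUNX1T1* overlapped within either set. The log2 fold change between labels was 1.29 ± 0.87 in Kasumi-1, 2.26 ± 0.86 in SKNO-1 and 1.77 ± 0.67 over both lines (SE, n = 3 per label and line), with edgeR adjusted p = 0.442, 0.466 and 0.110. The value in Kasumi-1 moved to 3.00 without Kasumi-1 siMM-mod replicate 3 (edgeR adjusted p = 0.000883), and that in SKNO-1 to 2.76 without SKNO-1 siRE-mod replicate 1 (edgeR adjusted p = 0.00920). Here too label and CD34 set coincide in the fits and cannot be told apart. The antisense gene *CDKN2B-AS1* shares 15.4% of the exonic bases and stood at 0.0678 to 3.86 normalized CPM.

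*CDKN2C* (chr1:50960745-50974634, plus strand), which encodes p18INK4c, stood at 72.5, 112 and 68.1 normalized CPM in replicates 1, 2 and 3 labelled Kasumi-1 siMM-mod and 64.4, 65.3 and 71.5 in those labelled Kasumi-1 siRE-mod. The SKNO-1 libraries gave 59.5, 72.5 and 81.9 with siMM-mod and 81.1, 44.1 and 68.1 with siRE-mod. The 3 highest values, 81.1 to 112, were those of the CD34-expressing libraries with less *RUNX1T1*, above 59.5 to 72.5 in those with more, and the lowest was that of the CD34-silent SKNO-1 siRE-mod replicate 2. Between labels the log2 fold change was -0.33 ± 0.22 in Kasumi-1, -0.15 ± 0.27 in SKNO-1 and -0.24 ± 0.17 over both lines (SE, n = 3 per label and line), with edgeR adjusted p = 0.437, 0.874 and 0.348. *CDKN2D* (chr19:10566462-10569059, minus strand), which encodes p19INK4d, stood at 0.894, 1.46 and 1.54 normalized CPM in replicates 1, 2 and 3 labelled Kasumi-1 siMM-mod and 6.31, 1.47 and 7.37 in those labelled Kasumi-1 siRE-mod. In SKNO-1 it stood at 0.584, 0.822 and 0.905 with siMM-mod and at 0.772, 0.913 and 5.19 with siRE-mod. The 3 CD34-silent libraries with the least *RUNX1T1*, those with the high *CCND3*, lay at 5.19 to 7.37, 3.38 times or more above the other CD34-silent libraries at 0.913 to 1.54, whereas in the CD34-expressing set the ranges 0.772 to 1.46 and 0.584 to 0.894 overlapped. Its log2 fold change between labels was 1.97 ± 0.63 in Kasumi-1, 1.55 ± 0.83 in SKNO-1 and 1.77 ± 0.53 over both lines (SE, n = 3 per label and line), with edgeR adjusted p = 0.252, 0.514 and 0.0776.

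Read over all 10 members, 3 stood apart without overlap between CD34-silent and CD34-expressing libraries, *CDKN2A* higher and *CCND1* and *CDKN1B* lower in the silent ones, beside 33.1% of all genes. By *RUNX1T1* within the CD34-expressing set, 7 of 10 stood apart against 38.2% of genes, of which *CCND1*, *CCND2*, *CDK4*, *CDK6* and *CDKN1A* were lower and *CCND3* and *CDKN2C* higher where *RUNX1T1* was lower. Within the CD34-silent set 4 of 10 stood apart against 43.3% of genes, *CCND3*, *CDKN1A* and *CDKN2D* higher and *CDK6* lower. The share of members that stood apart by CD34 and within the CD34-silent set was thus near that of all genes, and with 10 genes none of these counts is read as particular to the members. *CCND3* higher and *CDK6* lower with less *RUNX1T1* were the 2 members without overlap in the same direction in both sets, and *CDKN1A* was without overlap in opposite directions. *CD34*, as given above, and myeloid markers differed between the same sets. *MPO*, a granule enzyme, was at 10415 to 13065, 13016 to 22627, 3622 to 5741 and 1779.9 to 2052 normalized CPM in the 4 sets as ordered above, and *KIT*, a receptor of progenitors, was at 943 to 997, 679.6 to 786, 463 to 515 and 96.7 to 126 normalized CPM. Their part in the members' values was not tested.

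**Figure D3:**
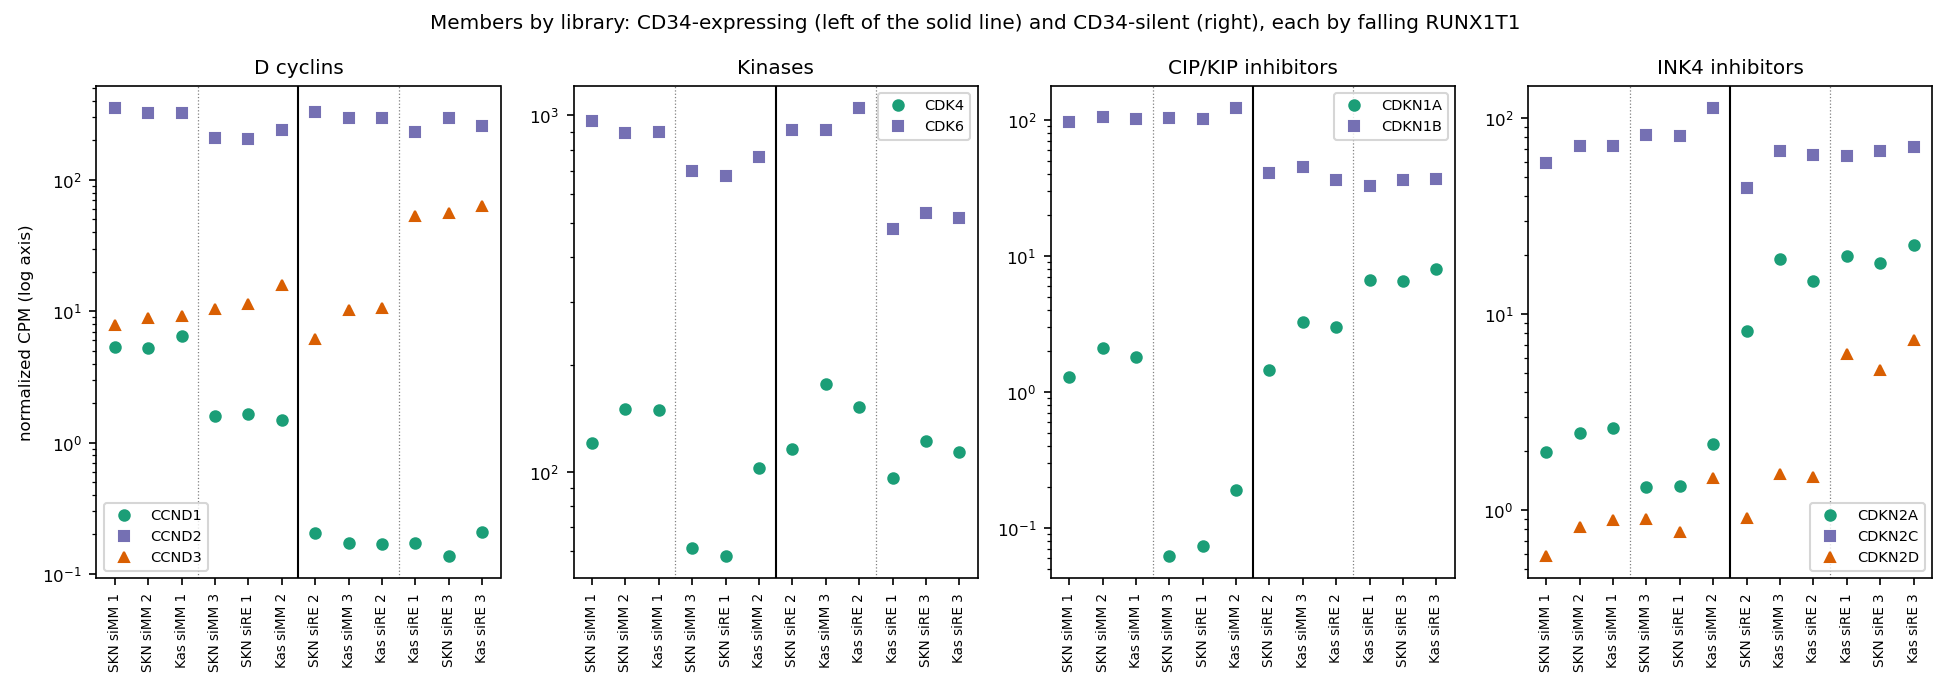
Normalized CPM on a log axis for the 12 libraries, the 6 CD34-expressing ones left of the solid line and the 6 CD34-silent ones right of it, each by falling *RUNX1T1*, with dotted lines between the 3 higher and 3 lower. Kas and SKN stand for Kasumi-1 and SKNO-1 in the library labels. *CCND1* is at 5.28 to 6.44 in the first 3 libraries, 1.49 to 1.66 in the next 3 and 0.209 or less on the right. *CCND3* and *CDKN2D* are high only in the last 3 libraries.

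Levels of different members were compared per kilobase of exon. *CCND2* made up 76.7% to 97.7% of the summed D cyclin level per length, and *CCND1* at most 2.79%. *CCND3* made up 18.9% to 23.2% in the 3 CD34-silent libraries with the least *RUNX1T1* and 2.25% to 7.57% in the other 9. The summed D cyclin level was lowest, at 31.0 to 36.2 normalized CPM per kilobase, in the CD34-expressing libraries with less *RUNX1T1* and at 41.3 to 51.3 in the other 9, so in the CD34-silent libraries with the least *RUNX1T1* the sum, at 41.3 to 50.7, overlapped that of the libraries with more, at 42.8 to 47.3. By this measure *CDK6* exceeded *CDK4* in every library, with 52.4% to 74.6% of their summed level. Of the exonic bases of *CDK4*, 44.2% are shared with *TSPAN31*, and whether reads on them were counted is not given. The *CDK4* level, the *CDK6* share and the kinase sum carry this uncertainty. The order of *CDK6* and *CDK4* is least certain where the *CDK6* share is lowest. The summed kinase level was at 70.2 to 82.7 and 73.9 to 95.5 in the libraries with less *RUNX1T1* of the CD34-silent and CD34-expressing sets and at 112 to 135 in the other 6. Among inhibitors, *CDKN1B* held 84.6% to 99.9% of the CIP/KIP level and *CDKN2C* 70.0% to 97.0% of the INK4 level. The share of *CDKN2C* was lowest, at 70.0% to 74.6%, in the 3 libraries with high *CDKN2D*, where *CDKN2D* held 11.4% to 14.5% and *CDKN2A* 14% to 15.5%. These shares are of RNA and not of protein.

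**Figure D4:**
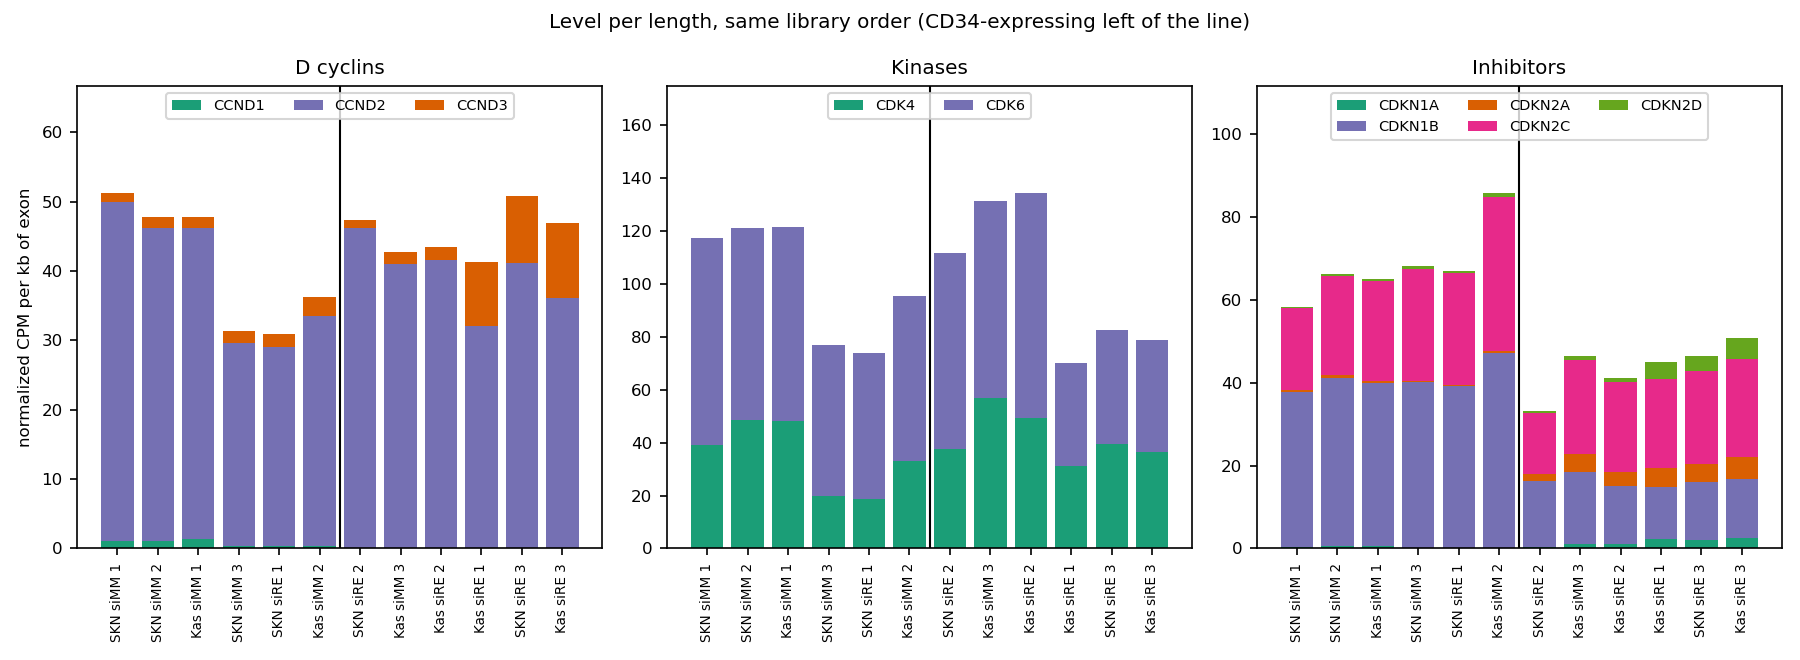
Stacked bars give normalized CPM per kilobase of exon for D cyclins, kinases and inhibitors in each library, in the same order, with CD34-expressing libraries left of the line. *CCND2*, *CDK6*, *CDKN1B* and *CDKN2C* fill most of each bar, and *CCND3* reaches 18.9% to 23.2% of the D cyclin bar in the last 3 libraries.

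Promoters were read for the members that stood out together in the 3 CD34-silent libraries with the least *RUNX1T1*, *CCND3*, *CDKN1A* and *CDKN2D*, and for *CDK4*, whose window held a rare set of motifs. The sequences are the 250 bases before the RefSeq start in GRCh38.p14 that coincides with the start of the main annotated transcript, printed 5' to 3' on the strand of the gene. Capitals mark the GC box (GGGCGG, both strands) and, in *CDK4*, also the E-box (CACGTG).
CCND3, chr6:41941809-41942058, minus strand: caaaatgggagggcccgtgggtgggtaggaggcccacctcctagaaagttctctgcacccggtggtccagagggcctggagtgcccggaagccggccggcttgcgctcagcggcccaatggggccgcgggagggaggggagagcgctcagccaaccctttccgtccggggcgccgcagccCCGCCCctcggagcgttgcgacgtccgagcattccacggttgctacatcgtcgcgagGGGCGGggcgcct
CDKN1A, chr6:36678464-36678713, plus strand: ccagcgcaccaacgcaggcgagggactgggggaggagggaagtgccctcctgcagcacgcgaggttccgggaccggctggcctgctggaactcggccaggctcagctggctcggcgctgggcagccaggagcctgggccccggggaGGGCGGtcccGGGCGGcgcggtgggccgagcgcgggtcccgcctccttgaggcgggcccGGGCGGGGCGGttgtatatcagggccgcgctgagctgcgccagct
CDKN2D, chr19:10568980-10569229, minus strand: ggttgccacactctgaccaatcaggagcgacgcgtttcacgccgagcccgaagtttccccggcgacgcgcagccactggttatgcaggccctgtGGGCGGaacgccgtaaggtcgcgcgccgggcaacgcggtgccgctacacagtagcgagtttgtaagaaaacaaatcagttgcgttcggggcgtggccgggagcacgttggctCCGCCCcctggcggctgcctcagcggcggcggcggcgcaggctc
CDK4, chr12:57752311-57752560, minus strand: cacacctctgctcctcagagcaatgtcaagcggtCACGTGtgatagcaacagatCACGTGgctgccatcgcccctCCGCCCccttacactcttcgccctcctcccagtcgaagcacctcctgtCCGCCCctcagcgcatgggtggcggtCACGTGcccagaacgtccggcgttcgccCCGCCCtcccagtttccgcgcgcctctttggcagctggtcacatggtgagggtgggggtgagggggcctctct

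RefSeq windows were found for 8 of the 10 members, all but *CCND1* and *CCND2*, and gave 14 windows, since *CCND3*, *CDK6*, *CDKN2A* and *CDKN2C* have several starts. The RUNX motif (TGTGGT or TGCGGT, both strands) was in 0 of the 14, beside 16.3% of 35116 windows of all genes. An E2F motif (TTTCGCGC, TTTCCCGC, TTTGGCGC or TTTGCCGC, both strands) was in 0 of 14, beside 2.79%. The GC box was in 10 of 14 windows against 42.6% of all, the 3 printed first included. The E-box, which MYC and related factors can bind, was in 3 of 14 windows against 6.34%, 2 of them of *CDKN2C*. The window of *CDK4* held 3, starting at positions -216, -196 and -101 from the start, as did 0.0797% of all windows. *CDK4* was picked for these motifs, so this share is not a test. *MYC* itself was at 517 to 626 and 393 to 683 normalized CPM in the CD34-expressing libraries with more and less *RUNX1T1*, and at 396 to 514 and 288 to 323 in the CD34-silent ones. Its ranges overlapped in the CD34-expressing and not in the CD34-silent set, the reverse of *CDK4*. A tie of *MYC* to *CDK4* was not tested. A match of letters is a description and not a site of binding.

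The other genes of the pathway were read from a list of 33, namely the RB and E2F family, later cyclins and kinases, other inhibitors, genes of protein turnover, upstream regulators and E2F targets of S phase. In edgeR's quasi-likelihood test, adjusted by Benjamini-Hochberg, 0 of the 33 were called between labels in Kasumi-1, SKNO-1, over both lines or for the difference between lines, with 5, 0, 7 and 0 at an unadjusted p under 0.05, beside 17.9%, 10.7%, 31.3% and 0.668% of all genes. *CDKN2B* was under the filter in each line alone, which left 32 tested there. The median log2 fold change of the list was 0.10, 0.01 and 0.10 in Kasumi-1, in SKNO-1 and over both lines. DESeq2 called 3 of 32 in Kasumi-1 (8.55% of all genes), *SKP2* higher and *E2F5* and *MYC* lower, and 0 of 32 in SKNO-1 (2.73%). Over both lines it called 7 of 33 (21.7%), 3 higher (*SKP2*, *MDM2* and *CDKN2B*) and 4 lower, *CDK1*, *E2F5* and *MYC* among them. These shares are near those of all genes, and nothing is read from them about the list. *MYC*, a transcription factor that drives growth and cyclin expression, had a log2 fold change of -0.62 ± 0.15 (SE, n = 6 per label) over both lines, with edgeR adjusted p = 0.0725 and DESeq2 adjusted p = 0.00238. It stood at 626, 683 and 514 normalized CPM in replicates 1, 2 and 3 labelled Kasumi-1 siMM-mod and 288, 433 and 323 in those labelled Kasumi-1 siRE-mod. Its values in SKNO-1 were 517, 535 and 409.6 with siMM-mod and 393, 396 and 293 with siRE-mod, so that the labelled groups of neither line overlapped. *SKP2*, part of the ubiquitin ligase that degrades p27, had a log2 fold change of 0.79 ± 0.23 over both lines (SE, n = 6 per label), with edgeR adjusted p = 0.0755 and DESeq2 adjusted p = 0.0149.

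Along the order of the libraries, 16 of the 33 genes stood apart by *RUNX1T1* in the CD34-expressing set, 15 lower and 1 higher where *RUNX1T1* was lower, beside 38.2% of all genes. In the CD34-silent set 23 of 33 stood apart, 19 higher and 4 lower where *RUNX1T1* was lower, beside 43.3%. The S phase gene *PCNA*, the clamp of DNA polymerase, was at 190.5 to 228 normalized CPM in the CD34-expressing libraries with more *RUNX1T1* and at 133 to 183 in those with less. In the CD34-silent set it was at 154 to 212 with more and at 243 to 313 with less. *CDC25A*, a phosphatase that activates cyclin-dependent kinases, ran likewise, at 86.0 to 88.1 and 68.7 to 78.9 in the CD34-expressing and at 36.5 to 53.9 and 83.8 to 100.5 in the CD34-silent set. By CD34, 7 of 33 genes stood apart, 5 higher and 2 lower in the silent libraries, beside 33.1%. *CDKN1C*, which encodes the CIP/KIP inhibitor p57, was at 3.07 to 5.25 in CD34-silent and 0.0742 to 0.596 in CD34-expressing libraries, and *CDKN2B*, which encodes p15INK4b beside *CDKN2A*, at 0.649 to 1.37 and 0.0255 to 0.327. *SKP2* was at 98.6 to 189 in CD34-silent and 61.8 to 76.3 in CD34-expressing libraries, the opposite of *CDKN1B*. *E2F5*, a member of the E2F family that mostly represses, was at 0.430 to 1.07 and 7.06 to 12.7. Across the 12 libraries *TFDP2*, *CCNE1*, *AMBRA1*, *MDM2* and *MCM5* varied least in their roles, by 1.5, 1.92, 1.43, 1.83 and 1.80 times from the lowest to the highest library.

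**Figure D5:**
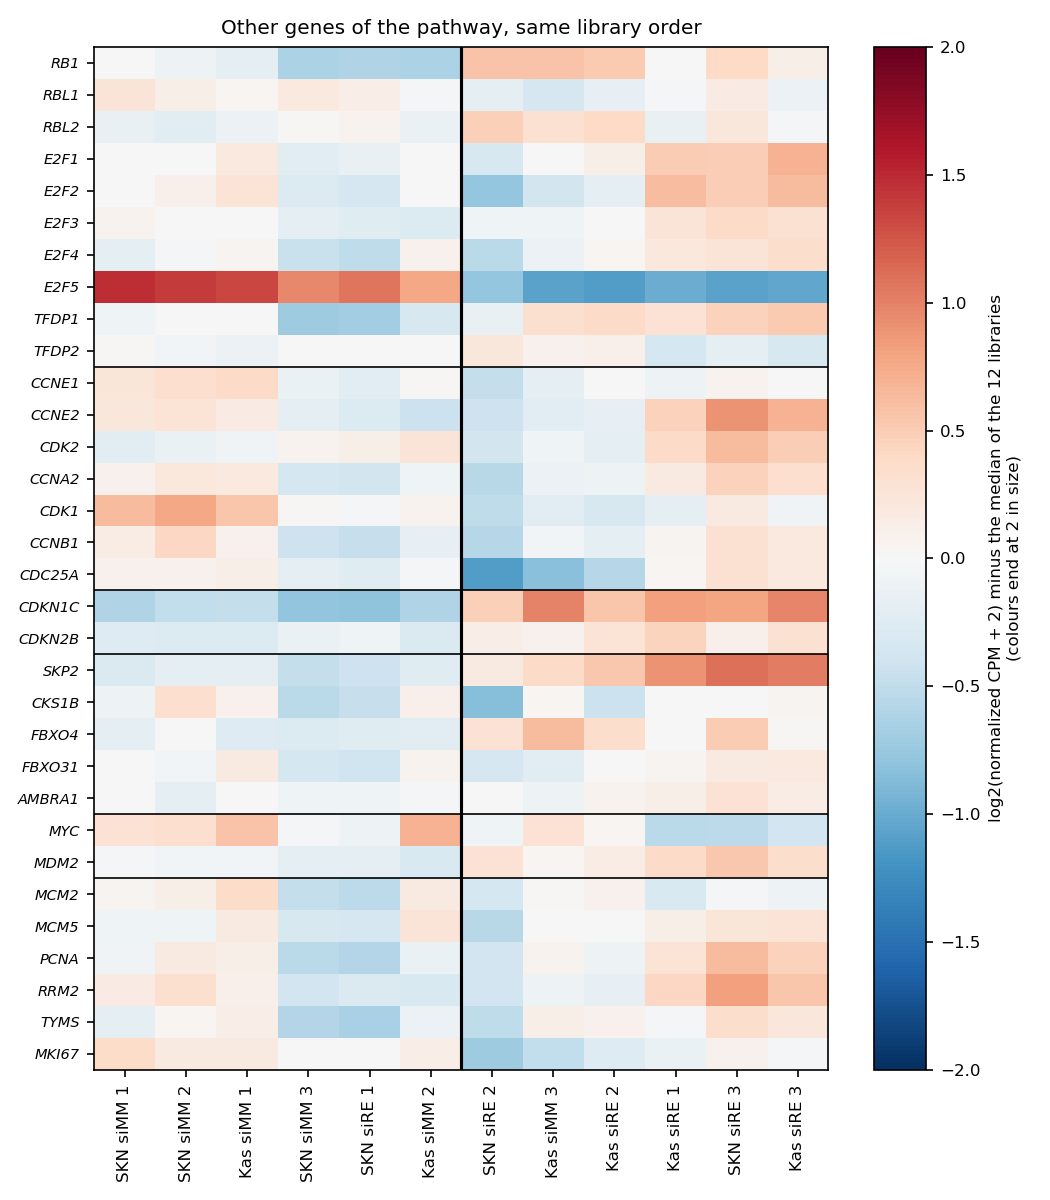
Colour gives log2(normalized CPM + 2) minus the median of the 12 libraries for 32 of the 33 other genes of the pathway, in rows by role, with libraries in the same order and the line between CD34-expressing (left) and CD34-silent (right). *E2F5* is high on the left, *CDKN1C* and *SKP2* on the right, and *PCNA*, *RRM2* and *CCNE2* in the last 3 libraries.

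The genes most like each D cyclin were sought among 10351 genes with a mean of at least 5 normalized CPM, by Pearson's correlation of log2(normalized CPM + 2) over the 12 libraries. The libraries fall into sets that separate many genes, so high values are common and are given as a description. For *CCND1* they were *ADAM12* (r = 0.997), *SLC18A2* (0.991) and *ESAM* (0.991). *CCND2* was most like *RO60* (r = 0.981), *CSNK2A1* (0.976) and *FAM210A* (0.970), and *CCND3* most like *KRI1* (r = 0.982), *PRKAB1* (0.977) and *ARMC7* (0.977). Between members, the closest pairs over the 12 libraries were *CCND3* with *CDKN2D* (r = 0.972), *CDKN1B* with *CDKN2A* (r = -0.954) and *CCND3* with *CDK6* (r = -0.902).

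The 4 in vivo libraries gave no level of any member. All 10 are listed in those tables and in none of the 4 libraries did any of them have a count (0 of 10 in each). Between 0.0200% and 0.0335% of the reads of these tables lie on genes, 5571 to 10266 counts a library, so the members are only said to be listed at 0.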

How the data were processed

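RNA-seq of 12 in vitro and 4 in vivo libraries was read as deposited. For the in vitro libraries the authors trimmed reads with Trim Galore 0.6.5, aligned them to GRCh38 with STAR 2.7.10a and counted them over the exons of each gene. The paper gives Subread 1.6.5 for this step and the table headers Rsubread 1.32.4 in R 3.5.1. The deposited counts are raw, and the deposited CPM are the same counts scaled to the library total, without further normalization. The in vivo tables hold deposited counts in the layout of HTSeq, with almost no reads on genes, and were used only to list the members. Overlaps of genes matter for the counts because neither strand setting nor the handling of shared reads is given in the sources used here.

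Libraries were grouped by their labels. Counts were fitted in edgeR 4.0.16 under R 4.3.3 (TMM, glmQLFit with robust estimation, glmQLFTest) on genes with 600 or more reads over the libraries of a fit, and p-values were adjusted over all genes tested by Benjamini-Hochberg at 0.05. The fits compared siRE-mod with siMM-mod in each line, over both lines with the line as a term, and as an interaction. Standard errors were derived from the fold change and its F statistic. Normalized CPM of a library use TMM factors over all 12 libraries (0.854 to 1.19), and log2 values a pseudocount of 2. Levels per length use the exonic length in the tables. The steps were tested on simulated data with less spread between libraries than these data and no sets crossing the labels. That test does not cover these features. Alternatives were DESeq2 1.42.0, other scalings and filters, a replicate block and each library left out in turn.

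The members, the pathway and marker lists and the order of libraries by CD34 and RUNX1T1 were chosen with earlier results of these data known. Named genes are the members, CD34, RUNX1T1 and IL5RA, markers, overlapping genes, the 3 genes most like each D cyclin, and pathway genes that passed a test or varied most or least in their role. RRM2 and CCNE2 were named after their values were seen. One gene of the pathway list is counted but its own values are not reported here. An exact permutation test of 3 libraries against 3 cannot go below p = 0.1 and was not used. Motifs were counted on both strands of the 250 bases before each RefSeq start. Figures were drawn with matplotlib 3.10.9 in Python 3.11.15.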

Additional observations from a re-analysis of the deposited data

How the results depend on the processing

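DESeq2 in place of edgeR moved the number of genes called from 0 to 1163 in Kasumi-1, 372 in SKNO-1, 3449 over both lines and 127 for the difference between the lines. With one library left out the number ranged from 0 to 4250 in Kasumi-1, from 0 to 2535 in SKNO-1 and from 0 to 4336 over both lines, and it was 0 in every such fit of the difference. The calls came without Kasumi-1 siMM-mod replicate 3 (4250, and 4336 over both lines), without SKNO-1 siRE-mod replicate 1 (2535, and 4123 over both lines) and, over both lines, without SKNO-1 siMM-mod replicate 3 (860). In the fits of a single line that gave calls, label and CD34 set coincide and cannot be told apart. Other scalings and filters called 0 genes. With the replicate number as a block (replicate block), 0 genes were called in each fit, with 1763, 1133, 4620 and 21 at an unadjusted p under 0.05 in Kasumi-1, in SKNO-1, over both lines and for the difference, and the log2 fold change of CDKN1A in SKNO-1 turned to -0.11. Deviations of same-numbered libraries from their label means correlated at -0.319 to 0.0415. Since the CD34 and RUNX1T1 sets cross the labels, these correlations cannot show whether the numbers pair the libraries.

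Scaling by library size alone turned the log2 fold change of CCND2 to 0.18 in Kasumi-1, 0.043 in SKNO-1 and 0.11 over both lines, and that of CDK4 to 0.049 in Kasumi-1 and 0.019 over both lines. With one library left out, direction turned in SKNO-1 only, for CCND2 (range -0.27 to 0.067), CCND3 (-0.022 to 1.83), CDK4 (-0.45 to 0.10) and CDKN2C (-0.38 to 0.068). Apart from these and CDKN1A in SKNO-1 under the replicate block, the members kept the direction of their fold change under the alternatives run in Kasumi-1, in SKNO-1 and over both lines. CCND1 was under the filter in Kasumi-1 without siMM-mod replicate 1 or 2, and CDKN1A and CDKN2D were in SKNO-1 without siRE-mod replicate 3, so these fits give no value. In DESeq2 the called members had log2 fold changes of -3.91 (CCND1, adjusted p = 0.0139), 1.83 (CCND3, 0.0383), -1.36 (CDKN1B, 0.0120) and 1.95 (CDKN2D, 0.0429) in Kasumi-1, and of -3.26 (CCND1, 0.00135), 1.61 (CCND3, 0.0132), -1.08 (CDKN1B, 0.00623), 1.74 (CDKN2A, 0.0232) and 1.74 (CDKN2D, 0.0110) over both lines. With one library left out, the members called over both lines ranged from -4.18 to -2.42 (CCND1), 1.05 to 1.86 (CCND3), -1.37 to -0.90 (CDKN1B), 1.3 to 2.6 (CDKN2A) and 1.20 to 1.97 (CDKN2D). With CPM as deposited, the mean level moved by more than 1 SD for CCND1 (0.207), CDKN1B (39.6) and CDKN2C (75.8) with Kasumi-1 siRE-mod and for CDKN1B (95.9) with SKNO-1 siMM-mod, 4 of 40 levels. The causes were not tested.

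For the difference between the lines (SKNO-1 minus Kasumi-1 in log2 fold change) no member passed the threshold under any alternative, and the direction turned for each of the 10 under at least one. It turned with the replicate block for CCND1 (-0.46) and CDKN2A (-0.35), with scaling by library size alone for CCND2 (-0.14), CDK4 (-0.060), CDK6 (-0.11) and CDKN2C (-0.035), and for CCND2 also in DESeq2 (-0.0045), with the size factors of DESeq2 in edgeR (-0.0045) and without a filter (-0.012). With one library left out it ranged from -0.70 to 1.75 for CCND1, -0.16 to 0.20 for CCND2, -1.90 to 0.026 for CCND3, -0.21 to 0.36 for CDK4, -0.16 to 0.52 for CDK6, -2.32 to 0.24 for CDKN1A, -0.074 to 0.84 for CDKN1B, -0.76 to 1.51 for CDKN2A, -0.080 to 0.39 for CDKN2C and -1.83 to 0.013 for CDKN2D.

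Depth limits CCND1, with 16 to 22 counts in each CD34-silent library, and CDKN1A, with 4, 5 and 15 counts in 3 CD34-expressing ones. Levels carry counting error, and with 3 libraries per label the edgeR standard error of a member within one line reached 1.53 on the log2 scale.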
